A study of Mus musculus with 9 samples.

Results

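Genes of the cell cycle were followed in the enamel organs of mouse pups raised under early life adversity (ELA) and of control pups. They were 52 genes taken by symbol from a list: 14 genes of DNA replication, 2 E2F transcription factors, 24 genes of mitosis and its preparation, 8 cyclins and kinases of the G1 phase and 4 inhibitors of cyclin-dependent kinases (CDKs). Each symbol stood on 1 of the 54532 rows of the count table, and all 52 genes had enough reads to be tested, among 15909 genes tested in all. Levels are given in CPM, the count scaled to the size of the library. The lowest mean level was 2.67 CPM for Cdc25c and the highest was 555 CPM for Cdkn1a.

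The ELA group was 5 male pups whose dams had little bedding and nesting material in the cage, which fragments maternal care, and the control group was 4 male pups from cages with ample material. The study left the ELA mice of lowest weight out of its later analyses and calls the controls weight-matched. By the weights it gives, the sequenced ELA pups were still lighter on average than the controls. All 9 pups were 12 days old, on a C57BL/6 background, and born to Crh-IRES-Cre +/+ dams mated with Ai14 tdTomato males, so both groups carried the same Cre driver and red reporter. The Cre sits at the locus of the corticotropin-releasing hormone gene. Each library was made from polyA-selected RNA of the enamel organs dissected from the first molars of 1 mouse, and the mice are called ELA 1 to 5 and control 1 to 4. The sample titles group ELA 1 and 2, ELA 3 to 5, controls 1 and 2, and controls 3 and 4 each under a number of their own. The meaning of that number was not stated. Pups that share it may be littermates. Every p-value and every interval treats the mice as independent, so p-values may be too small and intervals too narrow if litters differ.

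Total counts were 18056774 to 32110160 in ELA libraries and 18683431 to 20831736 in control libraries. The largest total was that of ELA 5, and the next was 21973071 in ELA 4. The part of this depth in the levels of ELA 5 was not tested. The enamel protein and protease genes Amelx, Enam, Ambn and Mmp20, which fit the tissue label, summed to 71277 to 129899 CPM in ELA and 50298 to 64530 CPM in control libraries. Of the 4, 3 were higher in ELA at an unadjusted p below 0.05, as were 3.56% of all tested genes. Dspp, best known as a dentin gene, was at 385 to 3654 CPM in ELA and 789 to 2735 CPM in control libraries. Markers of several other cell types moved with the group as well, where 2.89% of all tested genes were lower in ELA at an unadjusted p below 0.05. Of 11 tested B lymphocyte markers 7 were lower in ELA at an unadjusted p below 0.05, with sums of 22.3 to 32.7 CPM in ELA and 44.3 to 66.0 CPM in control libraries. Much of the ELA sum was Ebf1, which was not lower, at 12.8 to 26.6 CPM in ELA and 13.7 to 15.2 CPM in control libraries. The sums thus understate the difference of the other B lymphocyte markers. At the same threshold 5 of 9 mesenchyme and 3 of 9 erythroid markers were lower too, with sums of 11991 to 23371 and 163 to 382 CPM in ELA and 15682 to 31001 and 367 to 867 CPM in control libraries. So were 2 of 6 osteoblast and 1 of 5 tested osteoclast markers, with sums of 930 to 1905 and 185 to 672 CPM in ELA and 1394 to 2205 and 400.1 to 688 CPM in control libraries. Of 6 tested granulocyte markers 1 was lower. At the same threshold 0 of 6 macrophage, 0 of 5 endothelium and 0 of 4 tested muscle markers differed. In the dental lists 1 of 6 maturation ameloblast and 2 of 8 dental epithelium markers were higher, against 3.56% of all tested genes, and 0 were lower. The library ELA 4 stood apart: 228 genes of at least 2 CPM were 10 or more times as high there as in any other library, 0 of them cell cycle genes. The 10 markers of cerebellar granule cells summed to 549.5 CPM there and to 34.7 to 60.4 CPM in the other 8 libraries, where Atoh1, which defines their precursors, was at 0. Most of the sum in those 8 was Tubb3, at 32.6 to 58.0 CPM there and 92.8 CPM in ELA 4. Each other marker was at most 1.20 CPM in those 8, and at 1.09 to 139.8 CPM in ELA 4. The part of any of these cells in the cell cycle values was not tested. Without ELA 4 the log2 fold change of 28 of the 52 genes moved by more than 0.05, and 14 turned to the other sign. For those of the 28 described singly, both values are given.

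A dividing cell copies its genome in S phase and separates the copies in M phase, with the gap phases G1 and G2 between them. Cyclins D and E with their kinases drive the step out of G1, E2F factors then switch on the genes of DNA replication, and a later wave of genes builds the mitotic machinery. In the enamel organ, division takes place in the undifferentiated epithelium, and cells leave the cycle as they become ameloblasts, which secrete and then mature the enamel. Blood, mesenchyme and other cells that come along in a dissection may also divide, and in bulk tissue fewer cells of a type and less RNA per cell cannot be told apart.

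The promoters of the genes hold different short words in the replication and the mitotic list, which is why a few are shown. RefSeq promoter windows on GRCm38.p6, which run from 250 bases before to 50 bases after the start site and so are 300 bases long, were matched by symbol to 40 of the 52 genes. Words were searched on both strands: TTTGAA or TTCGAA for the CHR element, which the repressor complex DREAM and its relatives bind, CCAAT for the box bound by NF-Y, and TTTGGCGC, TTTCCCGC or TTCCCGCC for E2F sites, of which the last 2 words overlap each other. Below are the 200 bases before the RefSeq start site, 5′ to 3′ on the strand of the gene, with matched words of any of the 3 kinds in capitals on either strand. For Cdc6 this stretch lies inside the gene as the count table places it, which starts at 98907801. For Cdc20 a few of its bases do, as the gene there ends at 118437352. Mcm6, Rrm1 and Cdc6 are shown as examples from replication and Mki67, Top2a and Cdc20 as examples from mitosis. Not every gene of these lists is like them: the windows of Tyms, Tk1 and Birc5 hold none of the words.
Mcm6, chr1:128359706-128359905 (-): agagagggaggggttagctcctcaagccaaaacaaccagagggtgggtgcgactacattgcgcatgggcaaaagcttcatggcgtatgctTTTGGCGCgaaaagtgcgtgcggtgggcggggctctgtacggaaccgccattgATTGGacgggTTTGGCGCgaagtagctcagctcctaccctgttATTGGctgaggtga
Rrm1, chr7:102441495-102441694 (+): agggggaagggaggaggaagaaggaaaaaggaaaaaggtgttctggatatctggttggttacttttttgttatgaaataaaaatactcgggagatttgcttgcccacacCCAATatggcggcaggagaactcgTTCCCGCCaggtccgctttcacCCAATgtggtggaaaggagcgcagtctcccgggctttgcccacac
Cdc6, chr11:98907951-98908150 (+): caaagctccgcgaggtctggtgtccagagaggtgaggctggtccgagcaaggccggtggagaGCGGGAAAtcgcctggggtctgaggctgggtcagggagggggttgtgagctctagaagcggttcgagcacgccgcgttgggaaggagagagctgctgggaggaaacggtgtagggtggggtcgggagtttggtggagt
Mki67, chr7:135716380-135716579 (-): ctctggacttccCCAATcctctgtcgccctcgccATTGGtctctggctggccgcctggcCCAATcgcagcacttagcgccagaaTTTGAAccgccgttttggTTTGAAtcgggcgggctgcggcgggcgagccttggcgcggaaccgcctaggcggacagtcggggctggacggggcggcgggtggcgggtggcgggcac
Top2a, chr11:99024190-99024389 (-): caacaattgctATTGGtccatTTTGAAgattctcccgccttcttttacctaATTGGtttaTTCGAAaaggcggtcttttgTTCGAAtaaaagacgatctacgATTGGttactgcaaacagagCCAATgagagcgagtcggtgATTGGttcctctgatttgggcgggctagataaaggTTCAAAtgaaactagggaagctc
Cdc20, chr4:118437344-118437543 (-): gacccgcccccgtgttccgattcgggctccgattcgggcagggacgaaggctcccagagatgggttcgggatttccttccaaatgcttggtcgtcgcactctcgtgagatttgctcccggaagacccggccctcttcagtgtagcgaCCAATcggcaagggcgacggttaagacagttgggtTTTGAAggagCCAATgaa
Mcm6 holds the E2F word TTTGGCGC at both -110 and -47 from the start site, Rrm1 holds TTCCCGCC at -67 and Cdc6 holds TTTCCCGC on the other strand at -138. The Mki67 promoter has the CHR word at -116 and -98, Top2a has 4 CHR and 6 CCAAT words in its window, and Cdc20 has a CHR word at -18 between CCAAT boxes at -53 and -8. A CHR word was found in 15 of 18 matched mitotic windows and in 2 of 12 matched replication windows, against 19.23% of all 32851 windows of this length. E2F words were found in 0 of 18 mitotic and 7 of 12 replication windows, against 3.21% of all windows. A window with both CHR and CCAAT words was seen for 15 of 18 mitotic and 2 of 12 replication genes, against 7.52% of all windows. These are matches of letters and not measured binding.

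The study asked how gene expression in the enamel organ differed under ELA, and here the comparison was made for the genes that accompany division. No cell cycle gene passed the test of a difference between ELA and control enamel organs, edgeR's quasi-likelihood test. Of the 52 genes 0 passed an adjusted p of 0.05, where 0.0629% of all tested genes did (6 or 0.0377% higher and 4 or 0.0251% lower), and the smallest adjusted p was 0.916 for Cdkn2c. At an unadjusted p below 0.05 the count was also 0 of 52, against 6.44% of all tested genes, and DESeq2 and limma-voom likewise gave 0 of 52 at the adjusted and at the unadjusted threshold. Over all genes DESeq2 passed 0.89% at the adjusted p (0.502% higher and 0.388% lower) and 7.02% at the unadjusted p, and limma-voom passed 0.0566% and 6.3%. The ELA and control libraries overlapped for all 52 genes, while they did not overlap for 2.67% of tested genes.

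The data also bound how large a difference could be for each gene, if the mice are taken as independent. For all 52 genes the 95% interval of the fold change lay within 2-fold in either direction, as it did for 74.3% of tested genes. Its width rests on the spread between mice, which edgeR estimates partly from other genes, and it may be too narrow if litters differ. Each interval was set for 1 gene and not widened for the 52 together, so some may miss the true value. Within 1.5-fold lay the intervals of 28 of the 52, against 45.3% of tested genes: 12 of 14 replication, 0 of 2 E2F, 8 of 24 mitotic, 5 of 8 G1 and 3 of 4 inhibitor genes. Standard errors of the log2 fold change ran between 0.12 and 0.37, with a median of 0.21 for the 52 genes and 0.21 for all tested genes. The fold changes themselves were small. On the log2 scale they lay between -0.38 for Cdkn2c and 0.30 for Ccnd1, and their median absolute value was 0.08, against 0.15 for all tested genes.

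The signs leaned to positive with all 9 mice and were nearly balanced without ELA 4. The fold change was positive for 40 of the 52 genes, with a median of 0.07, where 52.6% of tested genes were positive with a median of 0.01. Without ELA 4, 28 of the 52 were positive, against 52.5% of tested genes, and all 52 intervals remained within 2-fold. In the mitotic list the number of positive genes was 18 of 24 with all mice, median 0.06, and 8 of 24 without ELA 4, median -0.05.

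**Figure D1:**
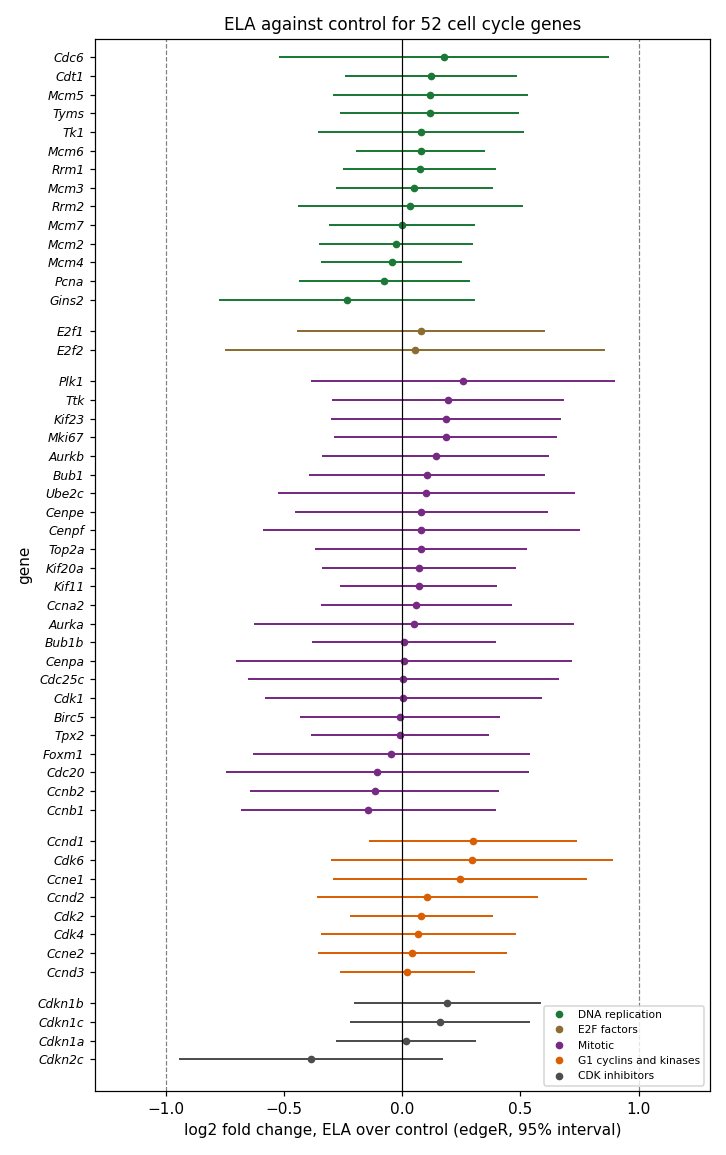
Log2 fold change of ELA over control for the 52 cell cycle genes, grouped by role, as points with 95% intervals as lines from edgeR (5 ELA and 4 control mice). The dashed lines mark 2-fold in either direction, and all 52 intervals lie between them and reach across 0.

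DNA replication genes had nearly the same mean level in both groups. The mean of log2 CPM over the 14 genes was 4.43 ± 0.17 in ELA and 4.41 ± 0.10 in control enamel organs (SD, n = 5 and 4 mice), a difference of 0.01. Per mouse it was 4.26, 4.43, 4.34, 4.41 and 4.70 in ELA 1 to 5, against 4.31, 4.54, 4.43 and 4.36 in controls 1 to 4. ELA 5 was highest and ELA 1 lowest, with the controls between them. Of the 14 fold changes 9 were positive and 5 negative, with a median of 0.06. That median was 0.01 without ELA 4, -0.03 without ELA 5 and -0.00067 without control 1, so its sign rested on single mice.

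Pcna, the sliding clamp that holds DNA polymerase on its template, had the most counts of the list, 84.4, 104, 106, 75.5 and 117 CPM in ELA 1 to 5, against 82.2, 125, 110.1 and 94.3 CPM in controls 1 to 4. The highest mouse was a control and the lowest was ELA 4, and its log2 fold change was -0.08 (95% interval -0.43 to 0.28), and 0.0017 without ELA 4. Rrm1, the large subunit of the ribonucleotide reductase that makes DNA precursors, was at 109, 83.1, 81.3, 87.8 and 75.0 CPM in ELA mice and 81.7, 95.9, 88.4 and 65.9 CPM in controls. Here ELA 1 was highest and control 4 lowest, and the log2 fold change was 0.07 (-0.25 to 0.39).

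The MCM helicase opens the double strand at replication origins. Its subunit Mcm6 had 49.7, 47.2, 45.9, 59.1 and 47.8 CPM in ELA mice, against 45.1, 45.7, 55.6 and 43.0 CPM in controls, a log2 fold change of 0.08 with the narrowest interval of the 52 genes, -0.19 to 0.35. Without ELA 4, its highest mouse, it was 0.01. Apart from ELA 4 and control 3, all its values lay between 43.0 and 49.7 CPM. The other 5 subunits, Mcm2, Mcm3, Mcm4, Mcm5 and Mcm7, spanned 16.9 to 47.4 CPM in ELA and 18.7 to 55.9 CPM in control mice, and the groups overlapped for each. Mcm2 was at 21.3 ± 3.94 CPM in ELA mice and 21.8 ± 0.28 CPM in controls (SD, n = 5 and 4), the smallest spread of any of the 52 genes among controls.

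Cdc6 and Cdt1 load the MCM helicase onto origins, and the GINS subunit Gins2 helps to activate it. Cdc6 was the most variable of the list and low throughout, with 2.96, 3.12, 4.68, 2.18 and 6.61 CPM in ELA mice and 2.95, 3.71, 3.60 and 3.60 CPM in controls. Controls 2 to 4 lay close together with control 1 below them, ELA 4 was below and ELA 3 and 5 above all 4 controls, and the log2 fold change was 0.18 (-0.52 to 0.87), or 0.33 without ELA 4. Cdt1 had 7.72, 7.12, 6.76, 8.24 and 8.25 CPM in ELA mice, against 8.12, 6.94, 6.06 and 6.95 CPM in controls (0.12, -0.24 to 0.48). Gins2 had 4.05, 5.69, 4.37, 4.06 and 7.38 CPM in ELA mice and 4.64, 7.04, 7.26 and 5.18 CPM in controls, and its fold change of -0.23 (-0.77 to 0.30) was the lowest of the list, although the highest single mouse was ELA 5. It was -0.16 without ELA 4. Tyms, which makes thymidylate, had 19.7, 16.5, 17.98, 14.1 and 20.4 CPM in ELA mice and 13.3, 21.2, 16.6 and 14.4 CPM in controls (0.12, -0.26 to 0.49, and 0.19 without ELA 4). The ELA mice lay within the range of the controls. The remaining members, the reductase subunit Rrm2 and the thymidine kinase Tk1, ranged over 12.0 to 28.2 and 9.25 to 16.8 CPM in ELA, and over 18.6 to 23.3 and 10.1 to 15.4 CPM in control mice.

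E2f1 and E2f2, activators of the replication genes, overlapped between the groups. E2f1 lay between 4.16 and 7.85 CPM in ELA and between 4.71 and 7.72 CPM in control mice. E2f2 lay between 1.86 and 8.21 CPM in ELA and between 3.17 and 6.76 CPM in control mice, and its 4.41-fold range from ELA 1 to ELA 2 was the widest of the 52 genes. Its interval, the widest too, still ended within 2-fold.

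Mitotic genes had nearly the same mean in both groups but spread further among ELA mice. The mean of log2 CPM over the 24 genes was 3.56 ± 0.32 in ELA and 3.56 ± 0.12 in control enamel organs (SD, n = 5 and 4), and without ELA 4 the ELA mean was 3.49 ± 0.32. In ELA 1 to 5 it was 3.14, 3.72, 3.30, 3.87 and 3.79, against 3.44, 3.70, 3.49 and 3.60 in controls 1 to 4. ELA 1 and ELA 3 lay below every control and ELA 2, ELA 4 and ELA 5 above every control. The difference of the spreads was not tested. A list of 45 other mitotic genes, which shares no gene with these 24, was at 3.17, 3.50, 3.07, 3.55 and 3.47 in ELA 1 to 5 and at 3.24 to 3.44 in the controls. Here too ELA 1 and 3 were below and ELA 2, 4 and 5 above all controls. These genes were read in the same mice, so they add no independent support for the spread.

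**Figure D2:**
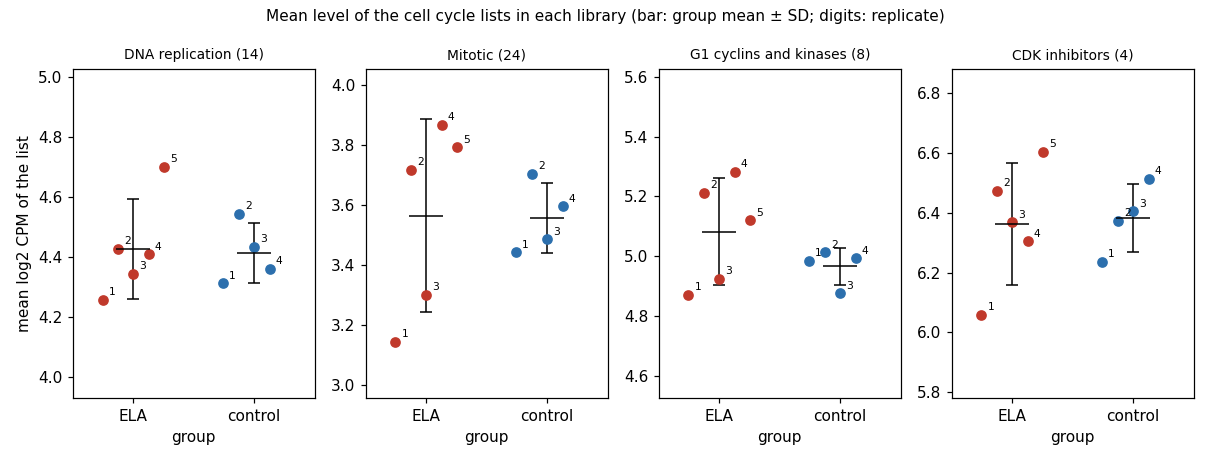
Mean log2 CPM of each cell cycle list per library (1 point per mouse, digits give the mouse), with the group mean and SD as bars; ELA is on the left and control on the right of each panel, and each vertical axis spans the same number of log2 units. In the mitotic panel the 5 ELA mice lie between 3.14 and 3.87 and the 4 controls between 3.44 and 3.70.

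Mki67, the gene of the proliferation marker Ki-67, had 60.6, 70.2, 48.5, 105 and 48.8 CPM in ELA 1 to 5, against 66.8, 58.2, 54.7 and 55.4 CPM in controls 1 to 4. ELA 4 was far above the rest and ELA 3 and 5 were the lowest 2, so the log2 fold change of 0.18 (-0.28 to 0.65) became -0.04 without ELA 4. Top2a, the topoisomerase that untangles sister chromatids, had 70.5, 73.7, 45.1, 102 and 60.6 CPM in ELA mice and 72.2, 73.5, 66.7 and 54.8 CPM in controls. It too was highest in ELA 4 and lowest in ELA 3, with a log2 fold change of 0.08 (-0.37 to 0.52) and of -0.10 without ELA 4.

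The kinase Plk1, which acts at several steps of mitosis, had the smallest p of the list. Its levels were 3.23, 8.65, 4.68, 8.24 and 8.50 CPM in ELA mice and 5.22, 5.16, 5.31 and 6.66 CPM in controls, so that ELA 2, 4 and 5 lay above and ELA 1 and 3 below all controls, with a log2 fold change of 0.26 (-0.38 to 0.89), which was 0.17 without ELA 4. Ttk, a kinase of the spindle checkpoint, had 4.82, 5.58, 3.90, 6.37 and 4.54 CPM in ELA mice and 3.59, 5.54, 4.30 and 4.22 CPM in controls (0.19, -0.29 to 0.68, and 0.09 without ELA 4). Kif23, a motor protein of the midbody, had 8.21, 13.9, 9.67, 17.1 and 14.2 CPM in ELA mice, against 12.2, 12.0, 8.86 and 11.5 CPM in controls (0.18, -0.30 to 0.67), and without ELA 4, its highest mouse, the log2 fold change was 0.05. For Ttk, ELA 2 and 4 were above all controls, and for Kif23 ELA 2, 4 and 5 were, with the other ELA mice within or below the range of the controls.

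Cenpa, the histone variant that marks centromeres, and Cdc20, an activator of the anaphase-promoting complex, had the largest SD of log2 CPM over the libraries in the mitotic list. Cenpa had 5.42, 13.5, 13.7, 10.2 and 18.9 CPM in ELA mice and 7.28, 13.4, 12.3 and 16.3 CPM in controls, with a log2 fold change of 0.01 (-0.70 to 0.71), or 0.07 without ELA 4. Cdc20 had 4.54, 11.8, 8.94, 10.47 and 15.3 CPM in ELA mice and 9.71, 12.2, 8.46 and 13.7 CPM in controls, and its log2 fold change was -0.11 (-0.74 to 0.53). In both genes ELA 5 was the highest and ELA 1 the lowest of all 9 mice.

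The other 17 mitotic genes overlapped between the groups in the same way. Among the cyclins and their kinase, Ccna2, Ccnb1, Ccnb2 and Cdk1 lay between 4.60 and 28.1 CPM in ELA and between 8.28 and 22.2 CPM in control mice. Of these, Ccnb2 is less certain, since reads were also counted for its pseudogene Ccnb2-ps, 57 to 128 counts per library beside 84 to 373 for Ccnb2. The checkpoint and spindle kinases and their partners Aurka, Aurkb, Bub1, Bub1b and Tpx2 spanned 2.85 to 31.4 CPM in ELA and 5.36 to 25.01 CPM in control mice. For Cenpe and Cenpf, long proteins of the kinetochore, ELA 4 was highest at 20.5 and 36.9 CPM, with 9.72 to 12.3 and 11.8 to 17.5 CPM in the other ELA mice and 8.96 to 15.5 and 15.2 to 22.1 CPM in control mice. The log2 fold change was 0.08 for Cenpe and 0.08 for Cenpf with all mice, and turned to -0.14 and -0.30 without ELA 4. The motors Kif11 and Kif20a, the transcription factor Foxm1, the phosphatase Cdc25c, the chromosomal passenger Birc5 and the ubiquitin-conjugating enzyme Ube2c lay between 1.75 and 24.8 CPM in ELA and 1.79 and 20.7 CPM in control mice.

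**Figure D3:**
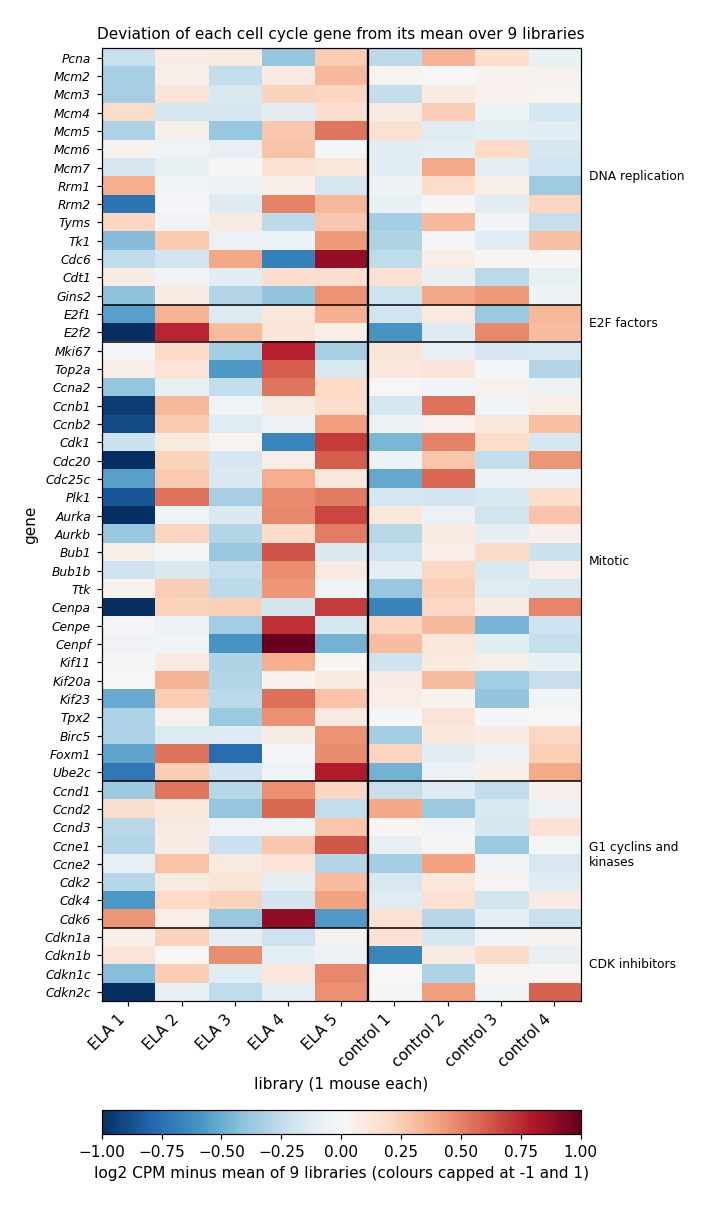
Deviation of each of the 52 cell cycle genes from its own mean over the 9 libraries in log2 CPM (red above, blue below, colours capped at -1 and 1), with libraries as columns, ELA left and control right of the black line, and genes as rows grouped by role. In the mitotic rows ELA 1 and ELA 3 are mostly blue and ELA 4 and ELA 5 mostly red, except for some genes of opposite colour in ELA 4 and ELA 5.

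The extremes of the cell cycle genes lay mostly in ELA mice. The highest of the 9 libraries was an ELA library for 44 of 52 genes, with ELA 5 for 20 and ELA 4 for 16, and the lowest was an ELA library for 40, with ELA 1 for 24 and ELA 3 for 10. Over all tested genes the highest was an ELA library for 63.9% and the lowest for 63.6%, with 5 of the 9 libraries being ELA. ELA 5 was highest for 14.4% and ELA 4 for 17.8% of all tested genes, and ELA 1 was lowest for 16.03% and ELA 3 for 8.15%, while ELA 4 was lowest for 19.1% of all tested genes and for 4 of the 52. ELA 1, 4 and 5 were thus often extreme over the whole table too. Within groups the median SD of log2 CPM was 0.38 for the mitotic genes and 0.23 for the replication genes, against 0.32 for all tested genes. The mitotic genes moved together across mice. Over the 276 pairs of mitotic genes the median Pearson r across the 9 libraries was 0.52 (0.46 over 8 libraries without ELA 4), against 0.23 over 91 pairs of replication genes, 0.28 between mitotic and replication genes and -0.01 between mitotic genes and all tested genes outside the list. These libraries share the tissue and the 2 conditions, and the coefficients are given as a description only.

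Deviations of the mitotic genes ran with gene length in some mice. In this list the length in the count table ranged from 1531 bases for Ccnb2 to 15433 for Cenpf. Spearman's rho between length and the deviation from the 9-library mean, over the 24 mitotic genes, was 0.57, -0.25, -0.49, 0.43 and -0.54 in ELA 1 to 5, against 0.39, 0.05, -0.09 and -0.55 in controls 1 to 4. Over all tested genes the same coefficient was 0.29, -0.11, -0.27, 0.39 and -0.41 in ELA and 0.19, -0.25, -0.18 and -0.05 in control mice, of the same sign as for the mitotic genes in every mouse but control 2. The shorter 12 mitotic genes averaged -0.62 in ELA 1 and 0.38 in ELA 5, and the longer 12 averaged -0.21 and 0.08 there. In ELA 4 the shorter 12 averaged 0.22 and the longer 12 averaged 0.39, and in ELA 3 they averaged -0.19 and -0.33. Short and long genes were thus both below the mean in ELA 1 and ELA 3 and above it in ELA 4 and ELA 5, and the part of length in these deviations was not tested.

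**Figure D4:**
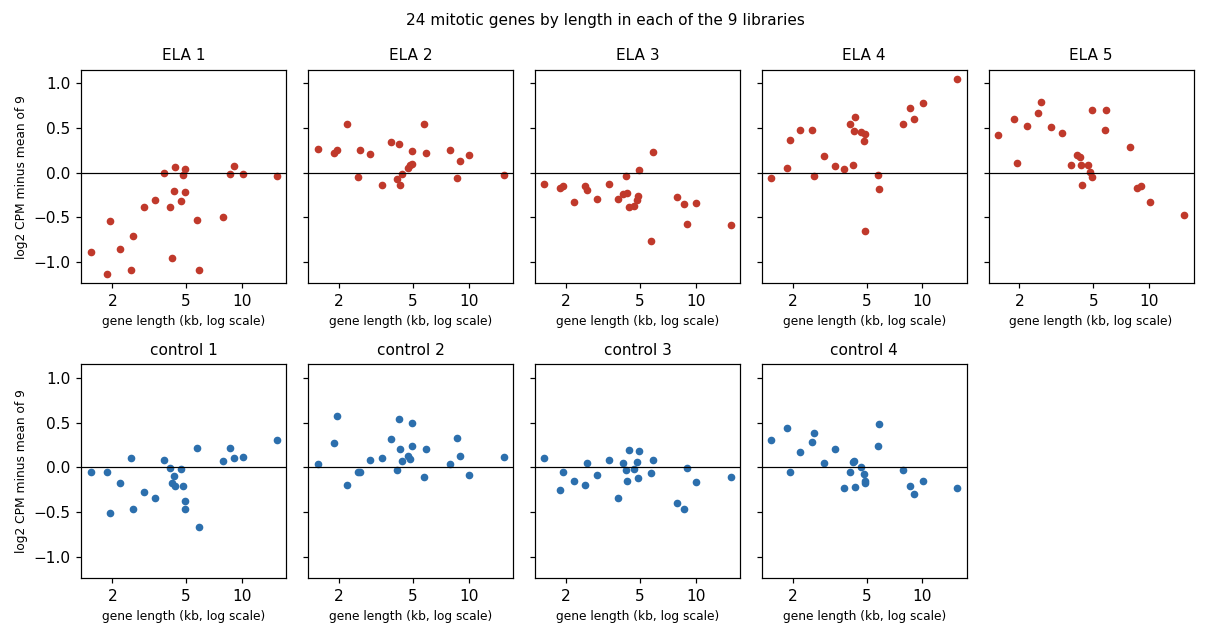
Deviation of the 24 mitotic genes from their 9-library mean (log2 CPM, vertical) against gene length (kb, log scale, horizontal), 1 panel per library and 1 point per gene, with ELA in the upper row and control in the lower row. Within the ELA 1 panel short genes tend to lie below long ones (rho 0.57), and within the ELA 5 panel long genes tend to lie below short ones (rho -0.54). Most points are below 0 in ELA 3.

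The G1 list joins the D cyclins, which respond to growth signals, their kinases Cdk4 and Cdk6, and the E cyclins with Cdk2, which fire the entry into S phase. All 8 fold changes were positive, with a median of 0.09, and 7 of 8 were positive without ELA 4, median 0.08. None passed the test, as given above. The mean of log2 CPM over the list was 4.87, 5.21, 4.92, 5.28 and 5.12 in ELA 1 to 5, against 4.99, 5.01, 4.88 and 4.99 in controls 1 to 4, so ELA 2, 4 and 5 were above all controls and ELA 1 was below them.

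Ccnd1, for cyclin D1, had 15.6, 29.3, 16.5, 27.7 and 23.4 CPM in ELA mice and 17.1, 18.4, 17.0 and 20.8 CPM in controls. ELA 2, 4 and 5 were above and ELA 1 and 3 below all 4 controls, and its log2 fold change of 0.30 (-0.14 to 0.73, unadjusted p = 0.163, adjusted p = 0.923) was the largest positive one of the 52 genes, and was 0.21 without ELA 4. Ccnd2 was the most abundant D cyclin by CPM, with 200.4, 194, 137, 267 and 151 CPM in ELA mice, against 235, 139, 161 and 173 CPM in controls. Its log2 fold change was 0.11 (-0.36 to 0.57), and -0.05 without ELA 4, which was the highest mouse. Ccnd3 was even across mice, with 57.3, 74.3, 68.1, 68.1 and 84.7 CPM in ELA mice and 70.6, 68.6, 62.1 and 77.1 CPM in controls (0.02, -0.26 to 0.30).

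Of the kinases, Cdk4 had 91.6, 157, 160.0, 120.1 and 179.9 CPM in ELA mice and 125, 152, 120.0 and 144 CPM in controls (0.07, -0.34 to 0.48, and 0.12 without ELA 4). ELA 1 was the lowest mouse and ELA 5 the highest. Cdk6 was ordered differently, highest in ELA 4 and lowest in ELA 5, with 23.7, 18.2, 13.4, 32.4 and 11.7 CPM in ELA mice and 19.4, 14.3, 16.3 and 14.9 CPM in controls. Its log2 fold change of 0.30 (-0.30 to 0.89) became 0.05 when ELA 4 was left out. Cdk2 had 28.3, 36.7, 37.5, 32.3 and 42.7 CPM in ELA mice, against 30.9, 37.0, 34.99 and 31.6 CPM in controls (0.08, -0.22 to 0.38). The controls lay within the range of the ELA mice.

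Cyclin E1, from Ccne1, was scarce, at 3.34, 4.33, 3.53, 4.97 and 6.36 CPM in ELA mice and 3.90, 4.14, 3.15 and 4.08 CPM in controls, with 3 of 5 ELA mice above all controls and a log2 fold change of 0.24 (-0.29 to 0.78). Ccne2 had 13.9, 17.96, 15.7, 16.1 and 12.0 CPM in ELA mice and 11.7, 19.5, 14.4 and 13.2 CPM in controls (0.04, -0.35 to 0.44), and there both the highest and the lowest mouse were controls.

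**Figure D5:**
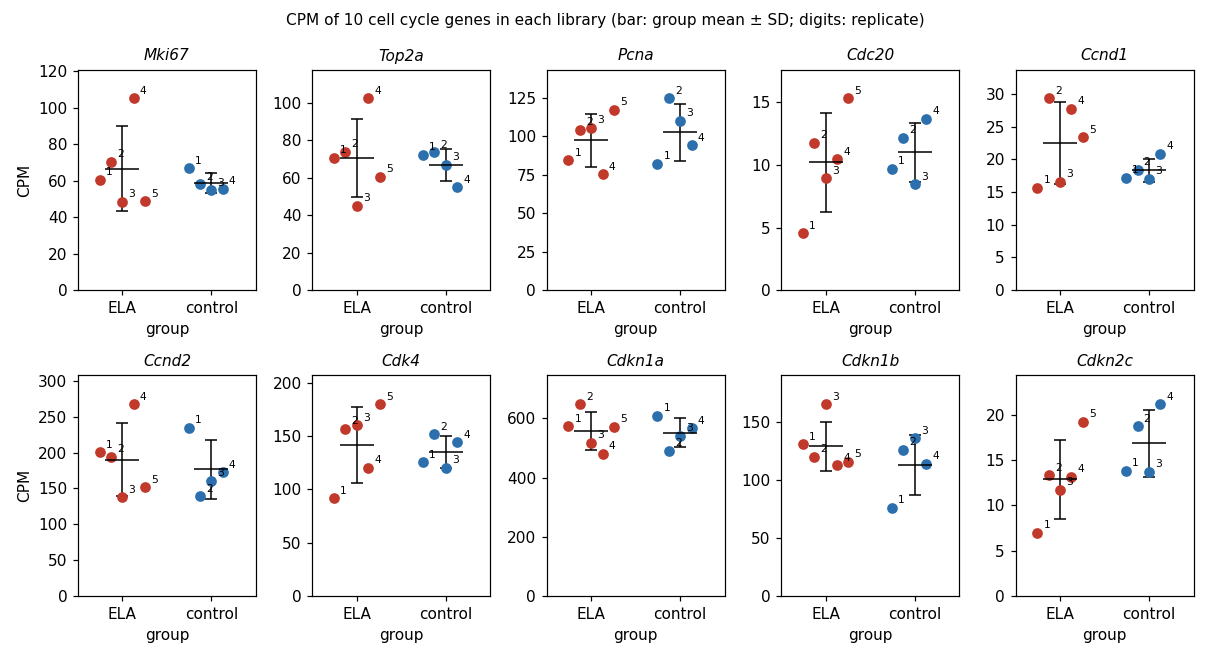
CPM of 10 cell cycle genes in each mouse (points, with digits for the mouse), with the group mean and SD as bars; ELA is on the left and control on the right, and every axis starts at 0. The groups overlap in all 10 panels, ELA 4 is the highest mouse for Mki67 (105 CPM), Top2a and Ccnd2, and ELA 1 is the lowest for Cdc20, Ccnd1, Cdk4 and Cdkn2c.

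CDK inhibitors hold cells out of the cycle, and the group includes the most abundant transcript of all 52. Cdkn1a, for p21, had 573, 648, 517, 479.9 and 571 CPM in ELA 1 to 5, against 609.8, 490.3, 542 and 566 CPM in controls 1 to 4. The controls lay within the range of the ELA mice and the log2 fold change was 0.02 (-0.28 to 0.31). Cdkn1b, for p27, had 131, 119.8, 165, 113 and 115 CPM in ELA mice and 76.1, 126, 136 and 114 CPM in controls. ELA 3 was highest and control 1 lowest, and the log2 fold change was 0.19 (-0.20 to 0.58).

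Cdkn1c, for p57, an imprinted gene, had 37.4, 59.6, 46.1, 54.4 and 70.1 CPM in ELA mice and 50.02, 40.5, 50.7 and 50.8 CPM in controls (0.16, -0.22 to 0.54). Controls 1, 3 and 4 were almost equal and the ELA mice spread to both sides of them. Cdkn2c, for p18, an inhibitor of Cdk4 and Cdk6, had 6.95, 13.3, 11.7, 13.1 and 19.2 CPM in ELA mice and 13.8, 18.7, 13.7 and 21.1 CPM in controls. ELA 1 to 4 lay below all controls, and ELA 5 lay above all but control 4. Its log2 fold change of -0.38 (SE 0.25, -0.94 to 0.17, unadjusted p = 0.156, adjusted p = 0.916) was the lowest of the 52 genes, and without ELA 5 it was the single gene of the 52 at an unadjusted p below 0.05.

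Levels of different genes can be compared only per length, in FPKM (CPM per kilobase of gene length). On that scale Cdkn1a led with 157 ± 17.98 FPKM in ELA and 155 ± 14.04 FPKM in control mice (mean ± SD, n = 5 and 4). Cdk4 followed with 43.6 ± 10.9 FPKM in ELA and 41.7 ± 4.67 FPKM in control mice, and Pcna with 40.6 ± 7.10 FPKM in ELA and 42.9 ± 7.73 FPKM in control mice, and these 2 do not differ beyond their spread. Then came Cdkn1b with 28.3 ± 4.72 FPKM in ELA and 24.8 ± 5.72 FPKM in control mice, and Cdkn1c with 26.3 ± 6.16 FPKM in ELA and 23.5 ± 2.45 FPKM in control mice, again within their spread. Mki67 stood at 6.63 ± 2.32 FPKM in ELA and 5.84 ± 0.555 FPKM in control mice, and Cdc6 was last of the 52 with 0.748 ± 0.337 FPKM in ELA and 0.663 ± 0.0660 FPKM in control mice. Transcripts of Cdkn1a, Cdkn1b and Cdkn1c were thus above those of every mitotic gene in both groups.

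Further genes of the pathway, in lists that share no gene with the 52, gave no call either: none of them passed the adjusted p in edgeR, DESeq2 or limma-voom. Of 38 other DNA replication genes 13 had a positive and 25 a negative fold change, with a median of -0.05. At an unadjusted p below 0.05, where 3.56% of all tested genes were higher and 2.89% lower, 1 was higher and 1 lower. Pole, the catalytic subunit of the leading-strand polymerase, had 11.6, 10.7, 11.6, 16.1 and 12.4 CPM in ELA mice and 9.65, 10.51, 8.16 and 8.06 CPM in controls. Every ELA mouse was above every control, as for 1.37% of tested genes, with a log2 fold change of 0.46 (0.09 to 0.83) and an adjusted p of 0.632. Hells, a chromatin remodeler, had 8.32, 10.1, 9.72, 10.1 and 8.34 CPM in ELA mice and 12.1, 13.3, 10.8 and 10.55 CPM in controls. Every ELA mouse was below every control, as for 1.29% of tested genes, with a log2 fold change of -0.33 (adjusted p 0.768). Chaf1b, a subunit of the histone chaperone CAF-1, had 10.1, 6.02, 6.96, 8.51 and 10.7 CPM in ELA mice and 11.7, 12.0, 9.81 and 11.1 CPM in controls (-0.39, -0.81 to 0.03), with overlap.

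Of 45 other mitotic genes 27 had a positive and 18 a negative fold change, with a median of 0.03, and 1 was higher at an unadjusted p below 0.05. This was Kif4, a chromosome-associated motor, with 12.6, 10.7, 7.69, 10.9 and 8.16 CPM in ELA mice and 7.33, 7.999, 6.96 and 7.10 CPM in controls, a log2 fold change of 0.45 (0.04 to 0.85, adjusted p 0.697). Only ELA 3 lay within the range of the controls, and without ELA 4 the unadjusted p of Kif4 was 0.0564. Ncapg, a condensin subunit, had 8.65, 9.75, 6.70, 8.38 and 9.05 CPM in ELA mice and 5.75, 7.61, 7.56 and 5.23 CPM in controls (0.38, -0.03 to 0.79). Prc1, which bundles the central spindle, had 16.6, 23.9, 20.1, 27.2 and 23.8 CPM in ELA mice and 18.1, 21.2, 16.4 and 18.4 CPM in controls (0.27, -0.08 to 0.62). In both genes most but not all ELA mice were above the controls.

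The retinoblastoma and E2F network, which restrains and releases the replication genes, had 10 of 19 positive fold changes and a median of 0.01. At an unadjusted p below 0.05 in edgeR 1 was lower and 0 were higher, against 2.89% and 3.56% of all tested genes. Its member Myc, a growth-promoting transcription factor, had 8.81, 13.0, 10.55, 5.67 and 13.3 CPM in ELA mice and 15.1, 19.4, 15.3 and 13.8 CPM in controls. All ELA mice were below all controls, as for 1.29% of tested genes, and the log2 fold change was -0.63 (-1.14 to -0.12, adjusted p 0.632). Lin37, a subunit of the DREAM complex, had 11.7, 14.6, 17.8, 12.6 and 18.7 CPM in ELA mice and 10.9, 13.8, 11.6 and 13.0 CPM in controls (0.29, -0.09 to 0.67). Lin9, another subunit, had 6.90, 7.45, 7.17, 7.02 and 7.23 CPM in ELA mice and 7.23, 12.1, 8.66 and 6.43 CPM in controls (-0.27, -0.70 to 0.17). Control 2 was highest for Lin9, and both genes overlapped.

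Among 14 other CDK inhibitors and regulators 6 fold changes were positive, median -0.03, and 0 had an unadjusted p below 0.05 in edgeR, DESeq2 or limma-voom. Wee1, the kinase that holds Cdk1 inactive, had 22.7, 26.5, 20.1, 18.7 and 19.7 CPM in ELA mice and 35.8, 22.6, 23.1 and 27.6 CPM in controls (-0.34, -0.70 to 0.02). Cdk7, the CDK-activating kinase, had 14.1, 20.5, 20.7, 15.9 and 28.9 CPM in ELA mice and 18.9, 25.3, 23.3 and 24.4 CPM in controls (-0.20, -0.63 to 0.24). Cdkn2a, the locus of the senescence-linked inhibitor p16, was barely read, at 0.109, 0.0548, 0.572, 0.174 and 0.618 CPM in ELA mice and 0.528, 0.289, 0.951 and 0.432 CPM in controls, and its interval of -2.22 to 0.66 is too wide to bound a difference within 2-fold.

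Targets of p53, the factor that induces Cdkn1a, had 7 of 16 positive fold changes and a median of -0.01. At an unadjusted p below 0.05 in edgeR 1 was lower and 0 were higher, against 2.89% and 3.56% of all tested genes. Fas, a death receptor, had 1.86, 2.57, 2.60, 2.44 and 2.13 CPM in ELA mice and 3.01, 4.14, 4.505 and 3.07 CPM in controls. Every ELA mouse was below every control, as for 1.29% of tested genes, with a log2 fold change of -0.66 (-1.19 to -0.14, adjusted p 0.616). Plk2, a polo-like kinase, had 29.4, 31.2, 32.01, 29.0 and 28.1 CPM in ELA mice and 34.5, 37.6, 41.4 and 29.3 CPM in controls (-0.25, -0.52 to 0.01). Sesn1, a sestrin, had 57.0, 50.4, 66.1, 42.9 and 56.6 CPM in ELA mice and 45.1, 85.6, 81.7 and 58.5 CPM in controls (-0.31, -0.73 to 0.11). The groups overlapped for both.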

How the data were processed

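The authors deposited whole-number read counts per gene, raw and not normalized, in 1 table for all 9 libraries, and 0 sample columns were left unassigned. CASAVA, HISAT and HISAT2 are named, with no version, in the submitters' processing notes. Which program counted reads, whether it used strand, and on which genome build, was not stated, and 13 of the 52 genes overlap a protein-coding gene on the other strand. Gene length is the table's own column, as deposited by the authors.

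ELA was compared with control in edgeR 4.0.16 (R 4.3.3): filterByExpr with a count minimum of 10, TMM, glmQLFit with robust estimation and glmQLFTest, adjusted by Benjamini-Hochberg over 15909 genes with a threshold of 0.05. Intervals are 95% t intervals on the fitted log2 fold change. DESeq2 1.42.0, which the study's methods name, limma-voom (limma 3.58.1), other scalings and filters, sums by title number and leaving out each mouse were alternatives. CPM values use TMM library sizes, and log2 CPM a prior count of 2. Libraries of a group differed by far more than sampling noise (21.3 to 134 for the chi-square statistic over its degrees of freedom), and each counted as 1 replicate.

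Values per mouse are given for Mki67, Top2a, Pcna, all G1 and inhibitor genes, the replication and mitotic genes with the smallest p (4 each), highest mean (2) or largest spread (2), and the 3 genes of each further list with the smallest p. The genes and lists were chosen with earlier results of these data known.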

Additional observations from a re-analysis of the deposited data

Results flagged for a closer look

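In each group and each of the 52 genes the highest and the lowest mouse were compared with the rest of the group by Dixon's criterion, which chance alone meets in about 1 of 20 groups. Of 108 groups examined, which include the mean levels of the replication and mitotic lists, 9 met it, where 5.4 would be expected. In 3 of them the mouse was ELA 4, the library with cerebellar markers, high for Mcm6 (59.1 CPM, next 49.7), Cenpe (20.5 CPM, next 12.3) and Cenpf (36.9 CPM, next 17.5).

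The other 6 were controls. Control 2 was high for Mcm7 (55.9 CPM, next 40.0) and Tpx2 (25.01 CPM, next 22.9) and low for Cdkn1c (40.5 CPM, next 50.02). Control 1 was high for Mcm5 (30.2 CPM, next 25.5) and low for Cdc6 (2.95 CPM, next 3.60), and control 4 was high for Plk1 (6.66 CPM, next 5.31).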

How the results depend on the processing

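Leaving out each mouse, the other tools, scalings, filters and the sums by title number gave 0 of the 52 cell cycle genes past the adjusted p in each of these fits, with an adjusted p of at least 0.562. At an unadjusted p below 0.05 the number of lower genes was 0 to 1 when 1 mouse was left out, the 1 being Cdkn2c without ELA 5. Counts over all genes moved more: 79 higher and 61 lower with DESeq2, 2 and 2 with plain library totals, 22 and 16 without a filter, 1 and 0 when genes under a mean of 1 CPM were dropped, 3 and 0 with counts summed by title number, and 0 to 15 higher and 0 to 8 lower when 1 mouse was left out, with 15 and 8 without ELA 2. No paired analysis was possible because the labels give no replicate number shared by the groups.

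The sign of small fold changes was not stable. Of 653 alternative values for the 41 genes named with values, 29 had the other sign and 0 passed the adjusted p. With plain totals Ccnd3 was at -0.0396, Ccne2 at -0.0105, Cdkn1a at -0.0478 and Cenpa at -0.0527, and Cenpa was at -0.0146 with limma-voom and -0.0376 with counts summed by title number. With 1 mouse left out the log2 fold change ran between -0.0438 and 0.28 for Mki67, -0.0964 and 0.21 for Top2a, -0.17 and 0.0285 for Pcna, -0.0499 and 0.27 for Ccnd2, -0.0525 and 0.0903 for Ccnd3, -0.0533 and 0.21 for Ccne2, -0.0314 and 0.19 for Cdk4, -0.0411 and 0.0667 for Cdkn1a, -0.0208 and 0.15 for Rrm1, -0.0995 and 0.33 for Cdc6, -0.20 and 0.20 for Cenpa, and -0.30 and 0.0842 for Cdc20. The mitotic median ran between -0.05 and 0.14 and the replication median between -0.03 and 0.10. The cause of these turns was not tested. Levels near 3 CPM, as for Cdc6 and Cdc25c, rest on few reads, and their intervals are among the wider ones.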
